A study of Rattus norvegicus with 17 samples.

Results

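The comparison described here sets 6 rat lung libraries against 5, out of 17 in the series, and asks what the phosphodiesterase 4B (PDE4B) inhibitor BI1015550 changed across genes in lungs injured with bleomycin. Libraries were assigned by their sample titles alone, so no measured value chose them. RNA came from the lung parenchyma of RjHan:WI rats, a Wistar strain, and was sequenced in bulk. The bleomycin group received bleomycin at 1 mg per kg (libraries 7, 8, 9, 11 and 12), and the treated group (libraries 13 to 18) received the same dose of bleomycin together with 2.5 mg per kg of BI1015550. The 6 control libraries (1 to 6) came from lungs given NaCl. All groups share the strain and tissue, and the labels used here give no age, sex, time point or route. No group received BI1015550 without bleomycin, so the comparison concerns injured lungs only. Nothing in the labels ties libraries to separate animals. P-values for genes therefore set the group difference against the spread between libraries, controls included, and this spread may be partly technical.

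Bleomycin breaks DNA and is used in rodents to produce lung inflammation followed by scarring, in which fibroblasts lay down collagen-rich matrix. Enzymes of the PDE4 family degrade cyclic AMP, a second messenger that restrains the activation of leukocytes and of fibroblasts. PDE4B is an isoform abundant in immune cells, and its inhibition is expected to let cyclic AMP accumulate there. Because RNA came from whole parenchyma, fewer cells of a type and less RNA per cell cannot be told apart in any value below.

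The deposited table identifies genes by Ensembl rat gene ID and does not pair these IDs with names, and the RefSeq rat gene table consulted (GRCr8) holds no Ensembl IDs. Genes are therefore described in groups by level and size of change, and 2 IDs in each direction are given. The lists for collagens, cytokines, phosphodiesterases, cyclic AMP targets and cell types could not be applied, so the labelled tissue was not checked against markers and no promoter sequence could be tied to a gene.

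Libraries held between 14609389 and 16192209 counts in the bleomycin and treated groups, and treated libraries held fewer on average. The mean total was 15040122 ± 494616 in treated libraries (SD, n = 6) and 15838211 ± 376603 in bleomycin libraries (SD, n = 5), a difference of -798089 counts (two-sided exact permutation test, p = 0.026, adjusted p = 0.0519 over 2 library properties). Despite the lower depth, 18656 ± 180 genes had a count in treated libraries and 18461 ± 70.6 in bleomycin libraries, a difference of 195 genes (exact permutation test, p = 0.0519, adjusted p = 0.0519). The part that depth may play in the results below was not tested beyond the scaling of libraries.

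Treated lungs differed from bleomycin lungs in a large share of the transcriptome, mostly by small amounts. Of 15000 genes tested, 4163 were called (27.8%) at an adjusted p below 0.05 by edgeR's quasi-likelihood test, with 1813 higher (12.1%) and 2350 lower (15.7%). The median called gene that was higher rose by 0.53 on the log2 scale, a 1.45-fold difference. For genes that were lower the median was -0.50, a 1.42-fold difference. The middle 50% of called genes lay between 0.36 and 0.80 among those higher and between -0.78 and -0.37 among those lower. Over all genes tested the median log2 fold change was -0.0032.

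Changes under 2-fold made up most calls. Among the genes that were higher, 172 differed by under 1.2-fold, 866 by 1.2 to 1.5-fold, 489 by 1.5 to 2-fold, 244 by 2 to 4-fold and 42 by over 4-fold. The corresponding numbers among the genes that were lower were 140, 1259, 585, 302 and 64. Called genes past 2-fold were thus 1.91% of the genes tested in the higher direction and 2.44% in the lower direction. Larger changes were called at lower median levels. The median level was 80.6 CPM (counts scaled to the size of the library) for genes called higher by under 1.2-fold, and 4.99 CPM for those over 4-fold. For genes called lower it went from 74.3 to 3.69 CPM.

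The level of a gene bore on how often it was called. Below 1 CPM, 13.6% of 887 genes were called, and the median standard error of a log2 fold change was 0.37. Between 10 and 100 CPM, 29.7% of 7883 genes were called, at a median standard error of 0.12. Of the 65 genes at 1000 CPM and above 53.8% were called, 16 higher and 19 lower. Among called genes below 1 CPM 79.3% differed by at least 2-fold, against 7% of those from 10 to 100 CPM and 6.42% of those from 100 to 1000 CPM. The genes at 1000 CPM and above broke this order, with 11.4% of called genes at 2-fold or more, a median size of change of 0.62 among called genes on the log2 scale (0.45 from 10 to 100 CPM and 0.41 from 100 to 1000 CPM) and a median standard error of 0.15.

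**Figure D1:**
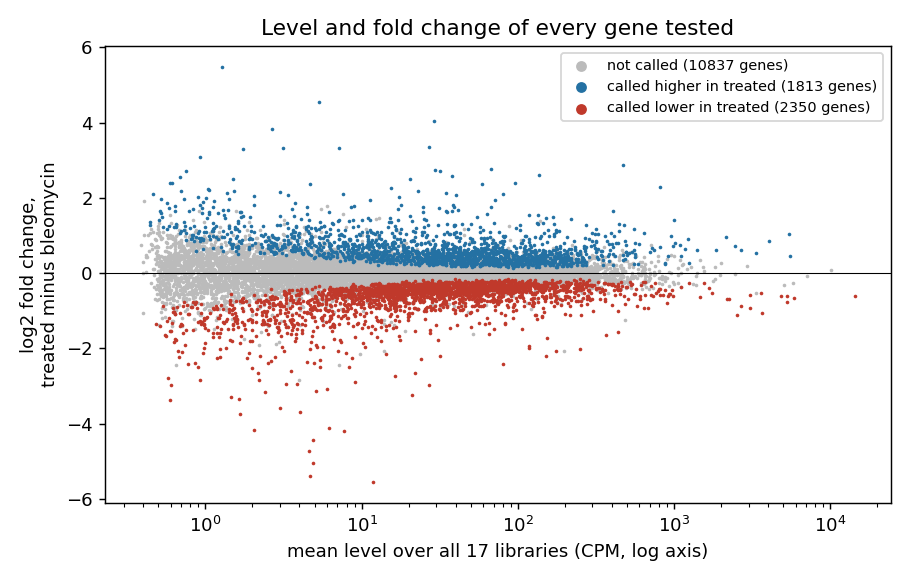
Each point is 1 of the 15000 genes tested, with its mean level over 17 libraries in CPM on a log axis and its log2 fold change of treated minus bleomycin libraries. Called genes are the 1813 higher (blue) and 2350 lower (red), and the band of uncalled genes (grey) widens toward low levels.

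The most abundant genes carried much of the change in RNA. Ranked by mean level over all 17 libraries, the 50 leading genes held 17.7% ± 0.981 of scaled counts in bleomycin libraries (SD, n = 5) and 15% ± 1.03 in treated libraries (SD, n = 6). Of these 50 genes, 11 were called higher and 18 lower (58%), against 27.8% of all genes tested. The leading gene averaged 20655 ± 4913 CPM with bleomycin (SD, n = 5) and 13630 ± 2006 CPM in the treated group (SD, n = 6), and the highest treated library (15861 CPM) lay just above the lowest bleomycin library (15837 CPM). It was lower by -0.60 on the log2 scale (SE 0.15, edgeR adjusted p = 0.00865). The gene ranked 7 moved the other way, from 2711 ± 1091 to 5615 ± 1265 CPM, which was 1.05 on the log2 scale (SE 0.22, edgeR adjusted p = 0.003). By contrast, the genes ranked 2 and 3 had log2 fold changes of 0.07 (edgeR adjusted p = 0.803) and -0.08 (adjusted p = 0.752).

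Summed over genes, the change was concentrated in few of them. Of the total fall in CPM among genes called lower, 48 genes (2.04%) held 50%. For genes called higher, 84 genes (4.63%) held 50% of the rise. A difference in CPM depends on a gene's level as well as on its fold change, and counts were themselves concentrated. The 200 most abundant genes held 28.8% of scaled counts in bleomycin libraries and 26% in treated libraries. The 2350 genes called lower took between 26.8% (library 11) and 32.3% (library 7) of scaled counts in bleomycin libraries, with a mean of 29.1% ± 2.49 (SD, n = 5). In treated libraries they took between 18% (library 13) and 21.4% (library 14), with a mean of 19.7% ± 1.42 (SD, n = 6), and in controls 17.8% ± 1.24 (SD, n = 6).

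The 1813 genes called higher showed the reverse. They took 12.2% ± 1.37 of scaled counts in bleomycin libraries (SD, n = 5) and 18.2% ± 1.93 in treated libraries (SD, n = 6), beside 18.9% ± 0.694 in controls (SD, n = 6). Library 8 was the highest of the bleomycin libraries at 14.4%, and library 15 the lowest of the treated ones at 15.8%. The genes were chosen for differing between these libraries, so the gap between the groups describes its size and is no separate test.

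**Figure D2:**
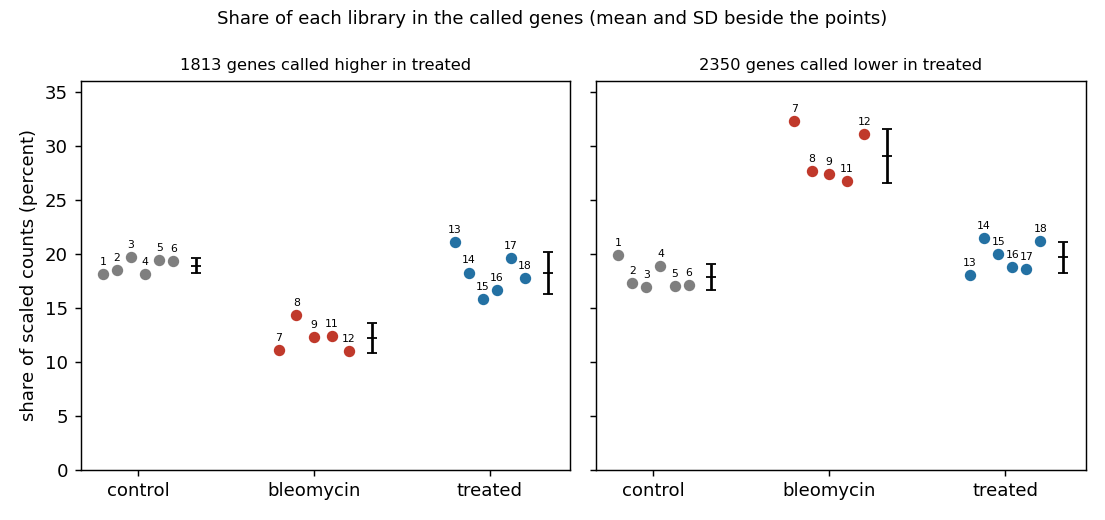
Share of scaled counts, in percent, taken in each library by the genes called higher (left) and lower (right) in treated lungs, with each group's mean and SD beside its points and library numbers above them. Bleomycin libraries lie at 26.8% to 32.3% for the genes called lower and treated libraries at 18% to 21.4%.

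Against control lungs, the called genes stood as follows. The comparisons share libraries (bleomycin against control shares the bleomycin libraries, treated against control the treated ones), so their values are set side by side and no relation between them is read. For genes called higher, group medians of the level were 28.3 CPM in bleomycin, 40.5 CPM in treated and 39.6 CPM in control lungs. For genes called lower, these medians were 36.1, 25.7 and 25.3 CPM. Among the 64 genes over 4-fold lower in treated than in bleomycin lungs, the median log2 fold change was -2.50, and it was 3.10 for bleomycin against control and 0.56 for treated against control. Among the 42 genes over 4-fold higher the corresponding medians were 2.39, -1.60 and 0.67.

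The genes shown by ID, 2 in each direction, are those of largest fold change among 1693 genes that were called, averaged at least 5 CPM and had ranges that did not overlap between bleomycin and treated libraries. ENSRNOG00000032871 measured 0.524, 0.194, 0.267, 0.315 and 0.324 CPM in bleomycin libraries 7, 8, 9, 11 and 12. In treated libraries it ranged from 0.814 (library 16) through a median of 5.54 to 21.2 CPM (library 13). Every treated library lay above every bleomycin library, but the treated libraries differed among themselves by 26.1-fold. The log2 difference was 4.54 (SE 0.76, 23.2-fold, edgeR adjusted p = 0.00107), from as few as 3 counts in a bleomycin library, and 3.92 without library 13. Its mean over all libraries was 5.31 CPM, near the limit of 5 CPM, and would fall below that limit without library 13. The place of this gene among those shown thus depends on library 13. Controls averaged 7.04 ± 2.91 CPM (SD, n = 6), and treated lungs differed from them by 0.13 (SE 0.52, edgeR adjusted p = 0.912).

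ENSRNOG00000060745 averaged higher in treated lungs than in either other group. It measured 3.01, 0.324, 0.933, 1.14 and 2.85 CPM in the bleomycin libraries, and between 3.82 (library 16) and 35.2 CPM (library 17) in treated ones, with a median of 14.3. The treated and bleomycin ranges were separate by a narrow margin, and libraries 17 and 13 were the highest. Its log2 fold change was 3.33 against bleomycin (SE 0.63, 10-fold, edgeR adjusted p = 0.00196; 2.56 without libraries 13 and 17) and 2.78 against controls (SE 0.56, edgeR adjusted p = 0.00559), which averaged 2.4 ± 1.73 CPM (SD, n = 6). The treated and control ranges overlapped, with control library 5 (5.54 CPM) above treated library 16. Bleomycin and control lungs differed by -0.54 (SE 0.63, edgeR adjusted p = 0.522).

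The genes of largest fall both averaged less in treated lungs than in controls, and the difference from control passed the test for 1 of them. ENSRNOG00000016535 measured 44.4, 3.69, 5.33, 5.49 and 8.02 CPM in the bleomycin libraries, and from 0.601 (library 17) through a median of 1.45 to 2.68 CPM (library 15) in treated ones. Library 7 held over 5 times the level of any other bleomycin library. The log2 fold change was -3.14 (SE 0.58, 8.81-fold, edgeR adjusted p = 0.00175), and without library 7 it was -1.89, still past the threshold (edgeR adjusted p = 0.00283). Its mean over all libraries was 5.07 CPM, and 2.61 CPM without library 7, so that its place among the genes shown rests on that library. Controls averaged 1.69 ± 0.411 CPM (SD, n = 6), from which treated lungs differed by -0.16 (SE 0.59, edgeR adjusted p = 0.908).

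ENSRNOG00000016164 fell below control level. It measured 13.3, 13.4, 12.1, 15.7 and 6.28 CPM in the bleomycin libraries, and from 0.601 (library 17) through a median of 1.24 to 3.2 CPM (library 15) in treated ones. Bleomycin libraries other than 12 lay close together, and all treated libraries lay below library 12. The log2 fold change was -3.09 against bleomycin (SE 0.49, 8.49-fold, edgeR adjusted p = 0.00094) and -1.90 against controls (SE 0.48, edgeR adjusted p = 0.0212). Controls averaged 5.33 ± 2.95 CPM (SD, n = 6), with 1 library at 0.536 CPM, below every treated library.

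**Figure D3:**
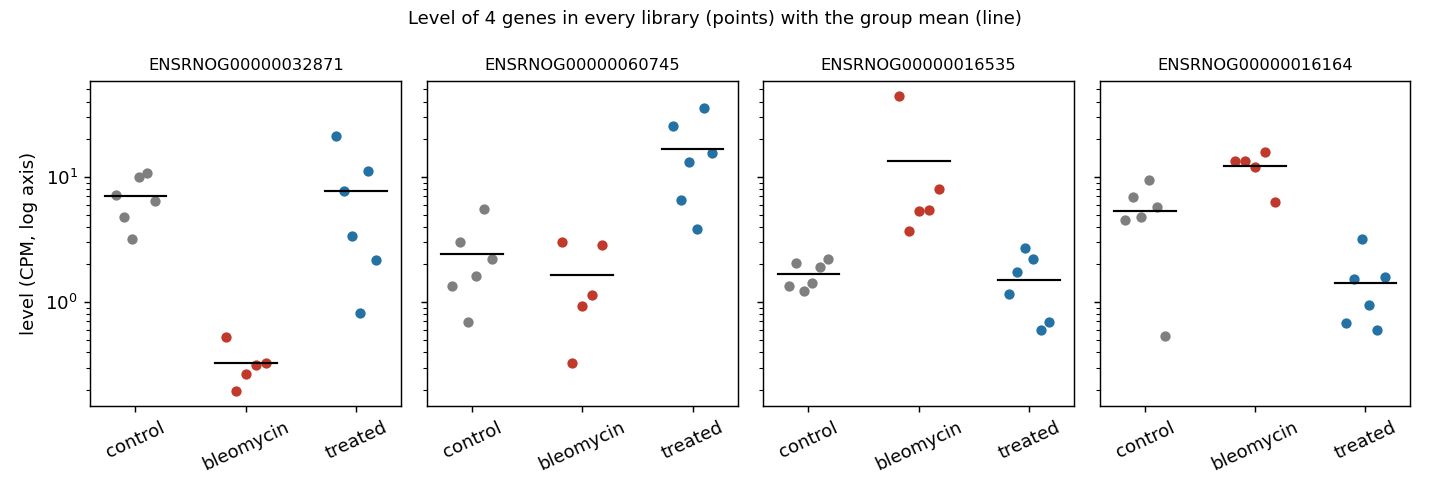
Level in CPM on a log axis of the 4 genes in every library (points) with the group mean (line). Treated and bleomycin ranges do not overlap in any panel, by the rule that chose the genes, and bleomycin library 7 stands apart at 44.4 CPM for ENSRNOG00000016535.

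The largest changes rested unevenly on libraries. Of the 64 genes over 4-fold lower, 41 had their highest level among bleomycin libraries in library 7, and 9 in library 12. In 25 of the 64 a single bleomycin library held over 50% of the summed level of the 5, and in 9 the highest was over 5 times the second. Without library 7 all 64 remained lower, 54 remained called, 33 of these by over 4-fold, and the median went from -2.50 to -2.04. Of the 42 genes over 4-fold higher, 22 were highest in treated library 13 and 9 in library 17. Of 40 that could be tested without library 13, 37 remained called, 26 of these by over 4-fold. The median was 2.39 over the 42 genes with all libraries, and 2.16 over these 40 without library 13.

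Ranges of the groups did not overlap for 823 genes with treated higher (5.49%) and 1287 with treated lower (8.58%). Of these, 731 and 1199 were also called by the test. The gap between the groups was narrow for most of them. The nearest libraries of the 2 groups differed by a median of 1.07-fold for genes called in either direction, and by over 2-fold for 1 gene in each direction, after adding 0.1 CPM to each level.

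Libraries were placed on a scale from bleomycin to treated with genes chosen without the library in question. For each library left out, the test was rerun, and the 200 called genes of smallest p in each direction gave a difference of mean log2 CPM. This was scaled so that the remaining bleomycin libraries averaged 0 and the remaining treated libraries averaged 1. Treated libraries lay at 1.32 (13), 0.83 (14), 0.654 (15), 0.756 (16), 1.19 (17) and 0.822 (18). Bleomycin libraries lay at -0.121 (7), 0.436 (8), 0.139 (9), 0.281 (11) and 0.122 (12). The groups did not overlap, with library 15 nearest to the bleomycin group and library 8 nearest to the treated group. Controls, which did not define the scale, lay between 0.878 and 1.19. For a left-out bleomycin or treated library, the others both chose the genes and set the ends, which can shift its position either way. For a left-out control, all bleomycin and treated libraries did both.

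**Figure D4:**
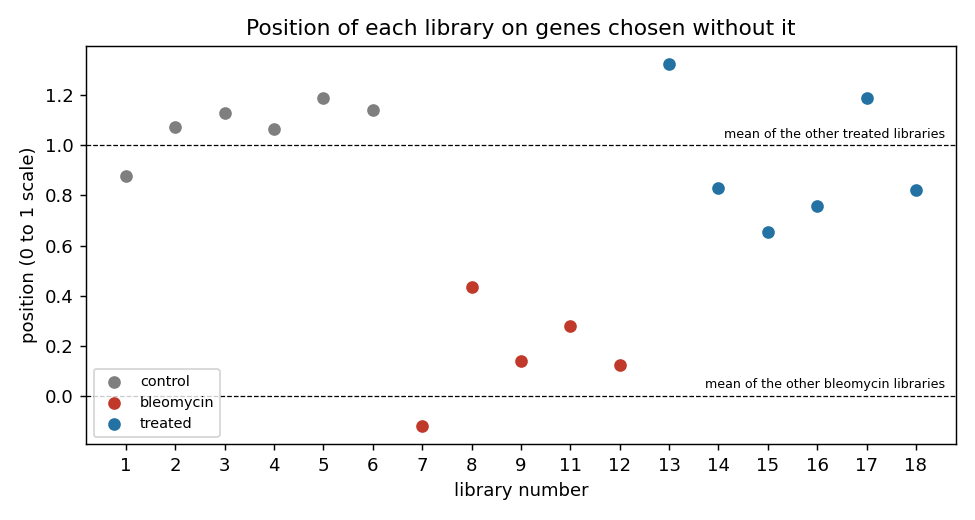
Position of each library, by number, on a scale on which the other bleomycin libraries average 0 and the other treated libraries average 1 (dashed lines), from genes called without the library. Treated libraries lie between 0.654 and 1.32, above bleomycin libraries at -0.121 to 0.436. Treated libraries 13 and 17 lie beyond 1, as do all controls except library 1 (0.878).

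At most genes, treated libraries were less spread among themselves than bleomycin libraries, a description with no test. The median standard deviation of log2 CPM over 15000 genes was 0.185 in treated libraries, 0.247 in bleomycin libraries and 0.217 in controls. It was larger in bleomycin than in treated libraries for 66.3% of genes. The share was 67.7% among genes that were not called, 60.6% among those called higher and 64.3% among those called lower. Leaving out library 7 lowered the share to 58.4%, the lowest value over the 11 libraries left out in turn. Distances between libraries, as root mean square differences of log2 CPM over these genes, had a median of 0.482 within the treated group and 0.583 within the bleomycin group. Between treated and bleomycin libraries the median distance was 0.678, and between treated and control libraries 0.585. The median was 0.479 within controls and 0.776 between bleomycin and control libraries. Distances between groups also grow with the spread inside each group. Library 15 was the single treated library with a smaller median distance to bleomycin (0.592) than to control libraries (0.613).

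Calls depended on libraries of all 3 groups. Leaving out 1 bleomycin or treated library at a time gave 3126 to 4427 called genes, and between 74.3% (without library 13) and 93% (without library 8) of the 4163 genes were kept. Controls enter through the shared fit, and leaving out 1 control gave 3933 (library 6) to 4611 (library 1) called genes. With the bleomycin and treated libraries fitted alone, 3888 genes were called, and 3580 of the 4163 were kept. Without treated libraries 13 and 17 together, 1929 genes were called, and 1880 of the 4163 remained. All 4161 of the 4163 genes that were tested there kept their direction. The median log2 fold change of the genes called higher was then 0.46 and that of the genes called lower -0.45. Leaving out 2 of 6 libraries also lowers the precision of the test, and the part of each in the loss of calls was not tested.

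**Figure D5:**
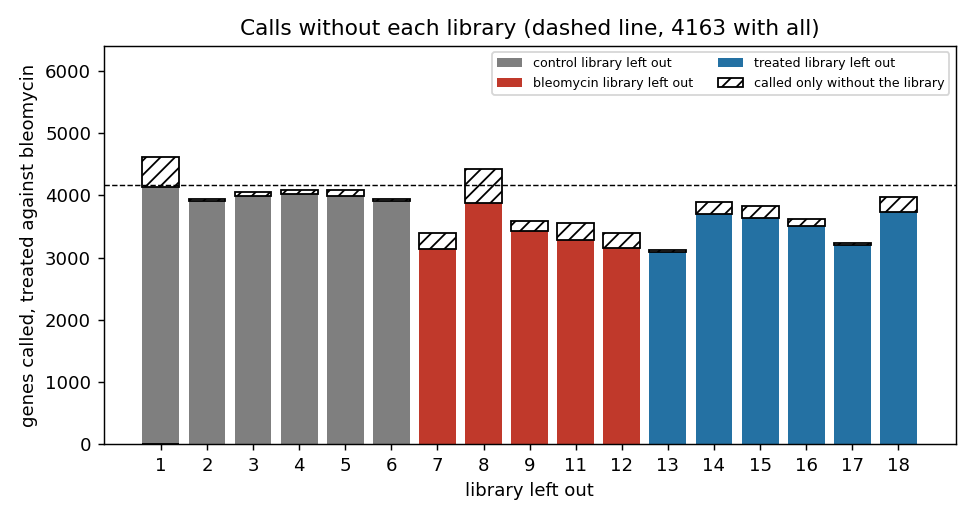
Number of genes called for treated against bleomycin lungs after leaving out each library (x axis), split into genes that were also called with all libraries (solid) and genes that were not (hatched). The dashed line marks the 4163 genes called with all 17 libraries, and the lowest bar, without library 13, reaches 3126.

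Genes listed at 0 throughout one group had low counts in the other. Of 23083 genes with a count in any library, 1441 had no count in the 5 bleomycin libraries and some in the 6 treated ones, and 897 the reverse, in groups of unequal size. Of these, 10 of the first and 7 of the second had at least 10 counts in all. The largest summed count was 21 in the first case and 72 in the second.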

How the data were processed

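RNA was extracted with a column kit and made into TruSeq mRNA libraries, per the labels' protocols. The authors deposited whole-number read counts per Ensembl gene for 17 libraries. Per the submitters' processing notes, tools included STAR 2.5.2b, featureCounts 1.5.1 and RSEM 1.3.0, and the builds were the rat Rnor_6.0 and the human GRCh38 and hg38, with no role given for any. The counting tool, annotation release and strand setting are not given in the sources consulted, so reads of overlapping genes or near-identical copies may have been shared or dropped.

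The analysis used edgeR 4.0.16 in R 4.3.3. Of 23083 genes with a count, 15000 passed filterByExpr and hold 99.93% of counts. Libraries were scaled by TMM. A quasi-likelihood model with 3 groups was fitted to all 17 libraries, and p-values were adjusted over all tested genes (Benjamini-Hochberg). SE is the absolute log2 fold change divided by the square root of F. Log2 CPM used a prior count of 2. The biological coefficient of variation was 19.9%. In simulated data with these group sizes (15000 genes, 200 changed), 40% of 1.5-fold, 83% of 2-fold and 96.5% of 4-fold changes were recovered. Of the genes called there, 5.88%, 4.05% and 3.02% were unchanged genes. Far fewer genes changed in the simulation than were called here, so these shares are not the recovery in these data. Replicates were separate libraries: the closest of 40 same-group pairs differed by 11 times sampling noise (chi-square per degree of freedom).

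Alternatives were other scalings and filters, DESeq2 1.42.0, limma 3.58.1, 1 surrogate variable (sva 3.50.0), the 2 groups alone and left-out libraries. The surrogate variable and the joint removal of libraries 7, 13 and 17 were chosen after seeing the data. Groups, gene lists and tests were chosen with earlier results of these data known. Genes to name were those called, at a mean of at least 5 CPM and with separate ranges, by largest fold change, limited to 2 in each direction because IDs had no names. The gene lists, cell type markers and promoter motifs were not used for the same reason.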

Additional observations from a re-analysis of the deposited data

Results flagged for a closer look

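ENSRNOG00000016535 reached 44.4 CPM in bleomycin library 7, and the gap to the next library was 0.894 of the range of the 5 bleomycin libraries, above the limit of Dixon's test. It was the single such value in 27 sets of library values, and for normally distributed values chance gives about 1 in 20. The gene was picked for its large fold change in these same libraries. Its log2 fold change against bleomycin was -1.89 without library 7.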

How the results depend on the processing

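The 4 named genes kept their direction and stayed past the threshold under every alternative run, with adjusted p from 5.77e-09 to 0.0309. They were chosen from these same libraries as called genes with separate ranges and the largest fold changes. Their persistence is therefore no separate test. Other scalings, filters, tools and fits gave 3593 (no filter) to 4887 (1 surrogate variable) called genes. Without treated libraries 13 and 17 the 1929 genes comprised 770 higher and 1159 lower, with 166 and 241 at least 2-fold. Without these and bleomycin library 7, 1179 genes were called (463 higher, 716 lower, 112 and 156 at least 2-fold), and ranges were apart for 1341 with treated higher. Leaving out 1 library at a time gave 3126 to 4611 called genes, 1304 to 2059 higher and 1822 to 2552 lower, 225 to 370 at least 2-fold higher and 297 to 457 at least 2-fold lower. Ranges were then apart for 823 to 1332 genes with treated higher (1332 without bleomycin library 8) and for 1263 to 1722 with treated lower. Fewer libraries widen the room between ranges by construction. The difference in library totals went from -967883 to -709590 counts, with exact permutation p from 0.0143 to 0.0667, above 0.05 without library 7, 8, 11, 13, 14, 15 or 17. The share of genes with a larger SD in bleomycin libraries went from 58.4% to 68.8%. The test recovered 40% of simulated 1.5-fold changes where 200 of 15000 genes were changed and 85 were called. With 4163 genes called here, the adjusted threshold admits larger p-values, so that share does not measure recovery in these data. Uncalled genes may still have changed by such amounts. No alternative of the gene lists was run. No paired analysis was possible because the labels name no pair or batch.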
